A study of Mus musculus with 24 samples.

Results

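Hmga1, Hmga2, Igf2bp1, Igf2bp2, Igf2bp3 and Lin28a, 6 genes linked to growth and to fetal and cancer cells, were followed across sorted mouse bone marrow populations. They were selected on the values of these same arrays: Hmga2 was seen to be lower in Dnmt1 hypomorph cells of both types studied, and the others were taken as its relatives or partners. Of the 6 genes, 4 had probe sets annotated to that symbol alone, 16 probe sets of the 34958 with 1 symbol: 4 of Hmga2, 4 of Igf2bp1, 6 of Igf2bp3 and 2 of Lin28a. Hmga1 and Igf2bp2 had none in the annotation used and are not analysed here. At the level of genes, 3 (Hmga2, Igf2bp1 and Igf2bp3) passed the filter on low intensity and were tested among 12745 of 18194 genes, and Lin28a did not pass.

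Cells were sorted by flow cytometry from the marrow of 129ola mice aged 8 to 12 weeks, and Affymetrix arrays were hybridised with biotinylated cRNA made from 35000 to 100000 cells. The arrays were 2 of Dnmt1+/+ (wildtype) B cell progenitors, 3 of Dnmt1-/chip (hypomorph) and 3 of Dnmt1+/+ myeloid progenitors (MP), and 3 of Dnmt1-/chip and 2 of Dnmt1+/+ haematopoietic stem cells (HSC). Dnmt1 encodes the methyltransferase that copies DNA methylation after replication, and the Dnmt1-/chip genotype joins a null allele to an allele of reduced function. The labels number the replicates of a group without saying whether they are separate animals or cultures. Every p-value therefore speaks only to the variation among these arrays, part of which may be technical.

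The labels were checked first. The most responsive Dnmt1 probe set averaged 8.94 in hypomorph and 11.69 in wildtype HSC, and 8.14 in hypomorph and 11.48 in wildtype MP, on the log2 intensity scale used throughout. The mean level of 9 B lineage markers was 11.29 to 11.32 on the B progenitor arrays and at most 5.08 on any other array. For 11 MP markers the mean level was 11.71 to 11.80 on hypomorph and 11.54 to 11.81 on wildtype MP arrays, and 8.47 to 8.89 on hypomorph and 7.27 to 7.74 on wildtype HSC arrays. For 10 HSC markers it was 5.96 to 6.25 on hypomorph and 6.34 to 6.95 on wildtype MP arrays, and 8.37 to 8.78 on hypomorph and 9.00 to 9.09 on wildtype HSC arrays. Replicate arrays correlated between 0.968 and 0.996 across probe sets.

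Hmga1 and Hmga2 are architectural chromatin proteins that bind the minor groove of AT-rich DNA through AT hooks and change how other factors reach it. Igf2bp1, Igf2bp2 and Igf2bp3 bind mRNAs, Igf2 among them, and affect their stability, transport and translation. Lin28a binds precursors of the let-7 microRNAs and blocks their maturation, and mature let-7 represses Hmga2, Igf2bp and Lin28 mRNAs. In the mouse this circuit is known for the high self-renewal of fetal HSC, in which Hmga2 is higher than in adult HSC.

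The let-7 sequence is shown because it links Lin28a to the other genes in that circuit. It is the RefSeq mature sequence (GRCm38.p6), with the seed, bases 2 to 8, in capitals. Of 10 mature 5′ let-7 names in the table used, 9 have this seed. MicroRNAs were not measured here.
mmu-let-7a-5p: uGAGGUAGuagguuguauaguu

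The promoters of Hmga2 and Igf2bp3 are shown because these are the 2 genes whose probe sets differed between groups by the tests and values given below. Dnmt1 acts on CpG sites, which are in capitals. Each window holds 250 bases before and 50 bases after the RefSeq start (GRCm38.p6), printed 5′ to 3′ on the strand of the gene. Hmga2 lies at chr10:120476420-120476719 on the minus strand, and Igf2bp3 at chr6:49214905-49215204 on the minus strand.
Hmga2: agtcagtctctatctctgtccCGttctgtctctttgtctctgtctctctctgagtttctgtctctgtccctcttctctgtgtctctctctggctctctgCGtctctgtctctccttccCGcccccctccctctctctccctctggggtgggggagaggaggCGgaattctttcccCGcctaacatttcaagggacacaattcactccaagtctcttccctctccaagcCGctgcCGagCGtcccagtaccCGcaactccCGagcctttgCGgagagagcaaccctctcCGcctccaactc
Igf2bp3: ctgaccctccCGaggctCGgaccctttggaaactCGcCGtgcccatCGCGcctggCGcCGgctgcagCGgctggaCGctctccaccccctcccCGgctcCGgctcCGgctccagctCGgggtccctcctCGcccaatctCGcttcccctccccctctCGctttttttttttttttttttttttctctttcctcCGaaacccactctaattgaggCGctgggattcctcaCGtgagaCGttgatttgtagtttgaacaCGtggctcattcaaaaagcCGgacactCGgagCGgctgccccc

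The Hmga2 window held 12 CpG sites, more than 60.4% of the 32851 promoter windows of the same length, and the Igf2bp3 window held 25, more than 81.6% of them. Both windows are rich in pyrimidines (C or T) on the printed strand. Pyrimidines made up 69.0% of the Hmga2 window, a share exceeded in 0.378% of all windows, and 65.0% of the Igf2bp3 window, exceeded in 0.953%. The longest unbroken run of pyrimidines was 23 bases for Hmga2 and 35 for Igf2bp3, where it contains a run of T. A run at least as long occurred in 2.04% and 0.332% of windows. The E-box CACGTG, which reads the same on both strands, occurred 2 times in the Igf2bp3 window and not in that of Hmga2. At least 1 copy was held by 7.15% of windows, and 2 or more copies by 0.594%. Windows were also present for Hmga1, Igf2bp2 and Lin28a, and that of Lin28a held 10 CpG sites. These counts describe the sequence alone, and DNA methylation was not measured here.

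Hmga2 was the member with the widest range. Its brightest probe set, 1422851_at, read 5.73, 5.25 and 5.66 on the hypomorph MP arrays, against 9.47, 8.62 and 8.55 on the wildtype MP arrays. Every hypomorph MP array lay below every wildtype MP array, with a gap of 2.82 between the groups. The means were 5.55 ± 0.26 in hypomorph and 8.88 ± 0.51 in wildtype MP (SD, n = 3 each), a difference of -3.33, or 10.1-fold lower in the hypomorph. In bulk arrays, fewer cells that express a gene and less RNA per cell cannot be told apart.

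In HSC the same probe set read 6.28, 6.45 and 6.74 on the hypomorph arrays, against 7.38 and 8.12 on the wildtype arrays. The groups did not overlap, with a gap of 0.64. The mean was 6.49 ± 0.24 in hypomorph HSC (SD, n = 3) and 7.75 ± 0.52 in wildtype HSC (SD, n = 2), a difference of -1.26, or 2.40-fold lower in the hypomorph. Since these contrasts chose the gene, both differences are descriptions and carry no test. Ordered by difference over the 12745 genes tested, Hmga2 was the 5th from the lowest in MP and the 256th in HSC. Among those genes, 10.8% were called in HSC and 0.588% in MP by limma at an adjusted p of 0.05, and nothing is read for the members from these shares.

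The other Hmga2 probe sets gave the same direction, with different sizes. Probe set 1450780_s_at read 5.43, 4.62 and 5.09 in hypomorph MP, against 8.76, 7.72 and 7.97 in wildtype MP, a difference of -3.10. In HSC it read 5.66, 5.78 and 5.70 in the hypomorph, against 5.92 and 6.65 in the wildtype, a difference of -0.57. The smaller HSC difference of this probe set rested on a gap of 0.14 between the groups.

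Probe set 1450781_at read 3.64, 3.47 and 3.77 in hypomorph MP, against 7.32, 6.20 and 6.56 in wildtype MP, a difference of -3.07. In HSC it read 4.88, 4.11 and 4.65 in the hypomorph, against 5.34 and 5.79 in the wildtype, a difference of -1.02. Neither cell type had overlapping groups in it. The dimmest, 1446196_at, stayed between 2.53 and 3.35 on all 13 arrays, at the 11th percentile of probe sets by mean level, and its groups overlapped in both cell types (-0.22 in MP and -0.38 in HSC). Across the 13 arrays the 3 brighter probe sets correlated at r = 0.89 to 0.98 with each other and at 0.36 to 0.45 with 1446196_at. These arrays fall into 5 groups and are not independent points. The suffix _s_at marks a probe set whose probes match more than 1 transcript.

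**Figure D1:**
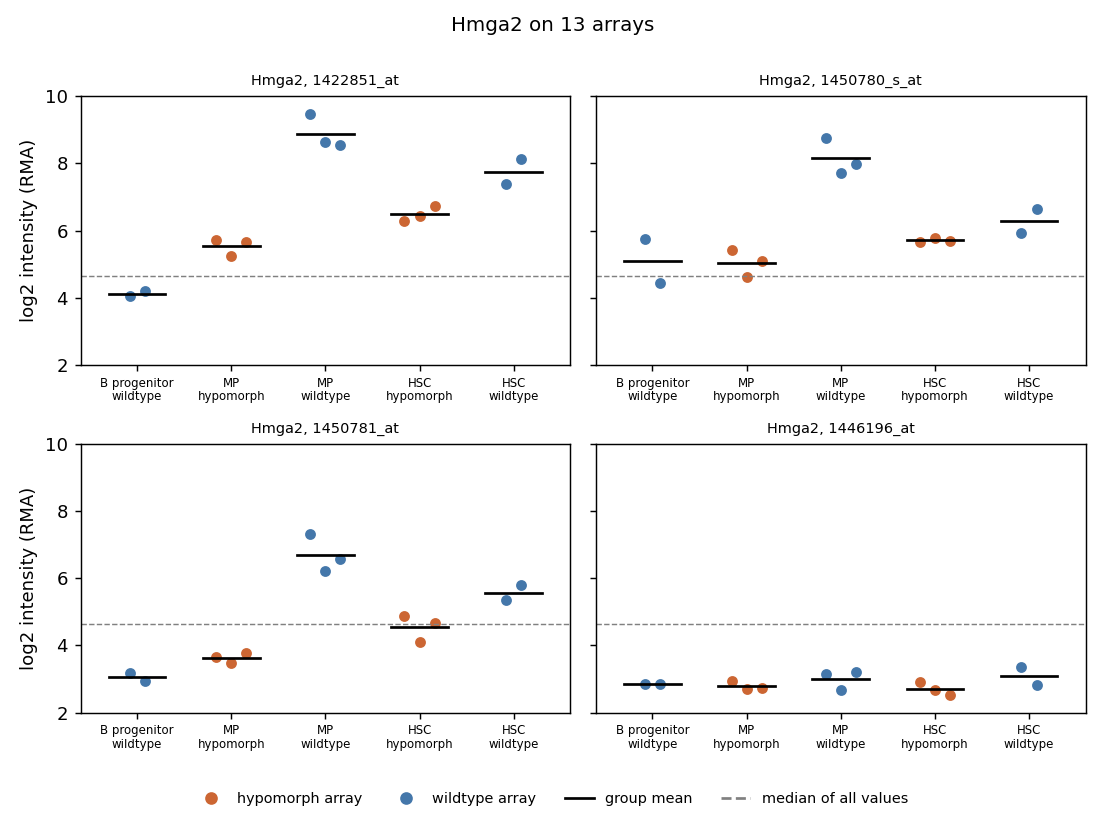
Log2 intensity (y axis) of the 4 Hmga2 probe sets on the 13 arrays, by cell population and genotype (x axis); points are arrays, bars group means, and the dashed line is the median of all values, 4.64. In 3 probe sets every hypomorph array lies below the wildtype arrays of its cell type, and 1446196_at lies under 3.4 on every array.

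Over the 5 populations the order of Hmga2 by 1422851_at was wildtype MP, wildtype HSC, hypomorph HSC, hypomorph MP and wildtype B progenitors, and no neighbours in that order overlapped. The B progenitor arrays read 4.06 and 4.19, under the filter level of 4.64. Probe set 1450781_at gave the same order with no overlap of neighbours. In 1450780_s_at the 2 B progenitor arrays, 5.74 and 4.44, lay on either side of the hypomorph MP arrays.

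The comparisons between cell types were not used to choose the genes, although they share arrays with the genotype contrasts that were. Hmga2 in wildtype MP exceeded that in wildtype HSC by 1.13 (SE 0.30), or 2.18-fold (limma adjusted p = 0.0122). In this comparison 1 of the 3 members tested was called, Hmga2, against 31.8% of all genes. The call of Hmga2 was lost without HSC wildtype 1 (0.76, limma adjusted p = 0.135), without MP wildtype 1 (0.83) and under array weights. The other bright probe sets gave 1.87 and 1.13 (limma adjusted p = 0.00686 and 0.0248 over all probe sets with no filter).

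Wildtype B progenitors had less Hmga2 than both other populations. Their mean of 4.13 ± 0.09 (SD, n = 2) differed from that of wildtype MP by -4.75 (SE 0.30), or 26.9-fold lower (limma adjusted p = 2.98e-08). Against wildtype HSC the difference was -3.63 (SE 0.33), or 12.3-fold lower (limma adjusted p = 1.15e-06). Both folds are ratios of the measured intensities. The B progenitor readings lie under the filter level with no detection call, so the true sizes are not known. Hmga2 was the 1 member called among 3 tested in each of these comparisons, where 35.9% and 45.0% of all genes were called. Both calls held under all 24 alternatives computed for each. In 1450780_s_at the B progenitor difference from wildtype HSC was -1.20 (SE 0.44) and was not called (limma adjusted p = 0.0606 over all probe sets with no filter). Both comparisons use wildtype arrays whose readings helped choose Hmga2. Their p-values are therefore not independent of that selection, under the alternatives too.

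Among hypomorph cells the order of MP and HSC was the opposite of that in the wildtype. Hypomorph MP differed from hypomorph HSC by -0.94 (SE 0.27) in Hmga2, or 1.92-fold lower (limma adjusted p = 0.0371). Here too 1 of 3 members tested was called, against 11.7% of all genes. The call was lost in 10 of 25 alternatives, among them the second normalization of the HSC and MP arrays, the mean of the probe sets (-0.61) and the fits without HSC hypomorph 2 or 3 or without any 1 of the MP hypomorph arrays, with adjusted p up to 0.156. Whether the effect of the genotype differed between MP and HSC was not tested, since the rule used both effects. That question rests on the same arrays as the MP against HSC differences in the wildtype and the hypomorph. The p-values of Hmga2 in both are therefore not independent of its selection, and no support for an opposite order is drawn from them.

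Igf2bp3, an mRNA-binding protein of fetal tissues and many tumours, differed between cell types in some probe sets. In 1422610_s_at the B progenitor arrays read 5.10 and 5.10, while wildtype MP arrays read 3.28, 3.45 and 3.19 and wildtype HSC arrays read 3.86 and 3.56. Hypomorph arrays read 3.64, 3.79 and 3.47 in MP and 3.56, 3.48 and 3.55 in HSC. The B progenitor arrays thus stood above all 11 others, and 1422610_s_at passed the filter through these 2 arrays alone. With no filter, over all 34958 probe sets, the B progenitor level exceeded that of wildtype MP by 1.79 (SE 0.16), or 3.46-fold (limma adjusted p = 4.96e-06), and that of wildtype HSC by 1.39 (SE 0.17), or 2.63-fold (limma adjusted p = 7.34e-05).

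Against wildtype MP, 2 further Igf2bp3 probe sets were called higher in B progenitors. Probe set 1433732_x_at read 4.53 and 4.06 in B progenitors, against 3.71, 3.70 and 3.35 in wildtype MP (0.71, limma adjusted p = 0.0127 over all probe sets). Probe set 1450687_at read 3.01 and 2.94, against 2.51, 2.59 and 2.37 (0.48, limma adjusted p = 0.0251 over all probe sets). Both lay under the filter level on all 13 arrays. Both B progenitor arrays lay above all wildtype MP arrays in 5 of the 6 Igf2bp3 probe sets, and in 23.7% of all 34958 probe sets. The 6 probe sets share a gene and are not independent of each other, and the 5 include the calls above.

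The probe set that stands for Igf2bp3 at the level of genes, the brightest, gave smaller differences. It was 1433731_at, with 7.25 and 6.48 in B progenitors, 6.39, 6.43 and 6.07 in wildtype MP and 6.72 and 6.20 in wildtype HSC. The B progenitor arrays differed from each other by more than their mean differed from that of either other group. The difference was 0.57 (SE 0.25) from MP and 0.40 (SE 0.27) from HSC, neither called (limma adjusted p = 0.0952 and 0.253). Without B progenitor 2 it was called in both comparisons (0.95 from MP and 0.79 from HSC), but that fit has 1 B progenitor array, which is assumed to vary like the other groups. It was also called under array weights against MP. The probe sets of Igf2bp3 therefore disagree in size, and 1422610_s_at and 1433731_at correlated at r = 0.70 over the 13 arrays.

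**Figure D2:**
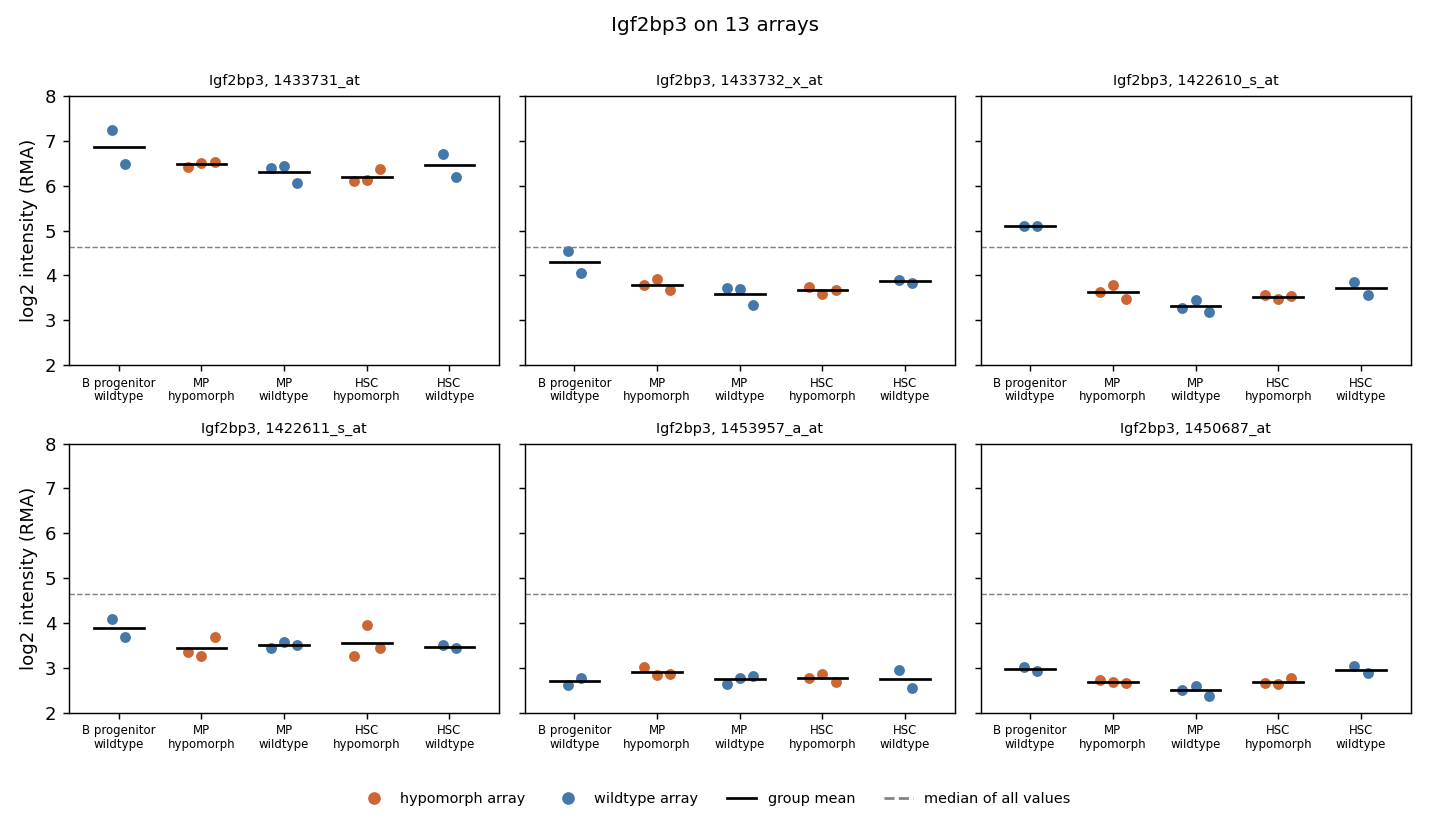
Log2 intensity (y axis) of the 6 Igf2bp3 probe sets on the 13 arrays, by cell population and genotype (x axis), drawn as for Hmga2. In 1422610_s_at both B progenitor arrays read 5.10 and all others lie under 3.9.

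Between genotypes the differences of Igf2bp3 were small, mostly positive in MP and mostly negative in HSC. In MP its 6 probe sets differed by -0.07 to 0.32, with every hypomorph array above every wildtype array in 3 of them, as in 11.5% of all probe sets. In HSC they differed by -0.26 to 0.08, with every hypomorph array below every wildtype array in 3, as in 20.7% of all probe sets. These genotype differences are descriptions with no test, and nothing is read from the counts. In the wildtype, 1450687_at gave a lower level in MP than in HSC, by a difference of -0.46 (limma adjusted p = 0.0372 over all probe sets with no filter). It is the dimmest Igf2bp3 probe set, at the 7.13th percentile by mean level, and lay under the filter level on every array. The brightest, 1433731_at, differed by -0.16 (limma adjusted p = 0.653 in the fit of genes). No Igf2bp3 probe set other than 1450687_at was called in this comparison.

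Igf2bp1, a relative of Igf2bp3 known from embryonic tissues, was even across the populations. Its brightest probe set, 1459825_x_at, read 5.98 and 5.48 in B progenitors. In MP it read 5.54, 5.47 and 5.64 in the hypomorph, against 5.37, 5.53 and 5.08 in the wildtype. In HSC it read 5.51, 5.48 and 5.25 in the hypomorph, against 5.44 and 5.83 in the wildtype. All 5 groups overlapped one with another in a span of means of 0.40. No comparison between cell types called it: wildtype MP minus HSC was -0.31 (SE 0.22, limma adjusted p = 0.317) and B progenitor minus wildtype MP was 0.40 (SE 0.22, limma adjusted p = 0.183). The suffix _x_at marks probes that can bind unrelated transcripts, and the other 3 Igf2bp1 probe sets lay under the filter level on every array. Between genotypes the 4 probe sets differed by 0.12 to 0.22 in MP, 1 of them without overlap, and by -0.22 to 0.10 in HSC with overlap in all.

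Lin28a, the let-7 blocker, was dim throughout. Its brighter probe set, 1421749_at, read 2.51 to 3.16 on the 13 arrays, and 1437752_at read 2.36 to 2.98, at the 12.7th and 7.44th percentile of probe sets by mean level. Neither passed the filter on any array, and no call between cell types was made for them over all probe sets with no filter. In 1421749_at hypomorph HSC read 2.81, 2.51 and 2.84, against 2.96 and 3.16 in wildtype HSC, a difference of -0.34 with no overlap. In 1437752_at the HSC difference was -0.38, also with no overlap. In MP the differences were 0.09 and 0.04, with overlap. At these intensities no detection call is at hand, so whether the values lie above background is not known. The related gene Lin28b, which is no member, averaged 2.31 to 2.46 over the 5 groups.

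**Figure D3:**
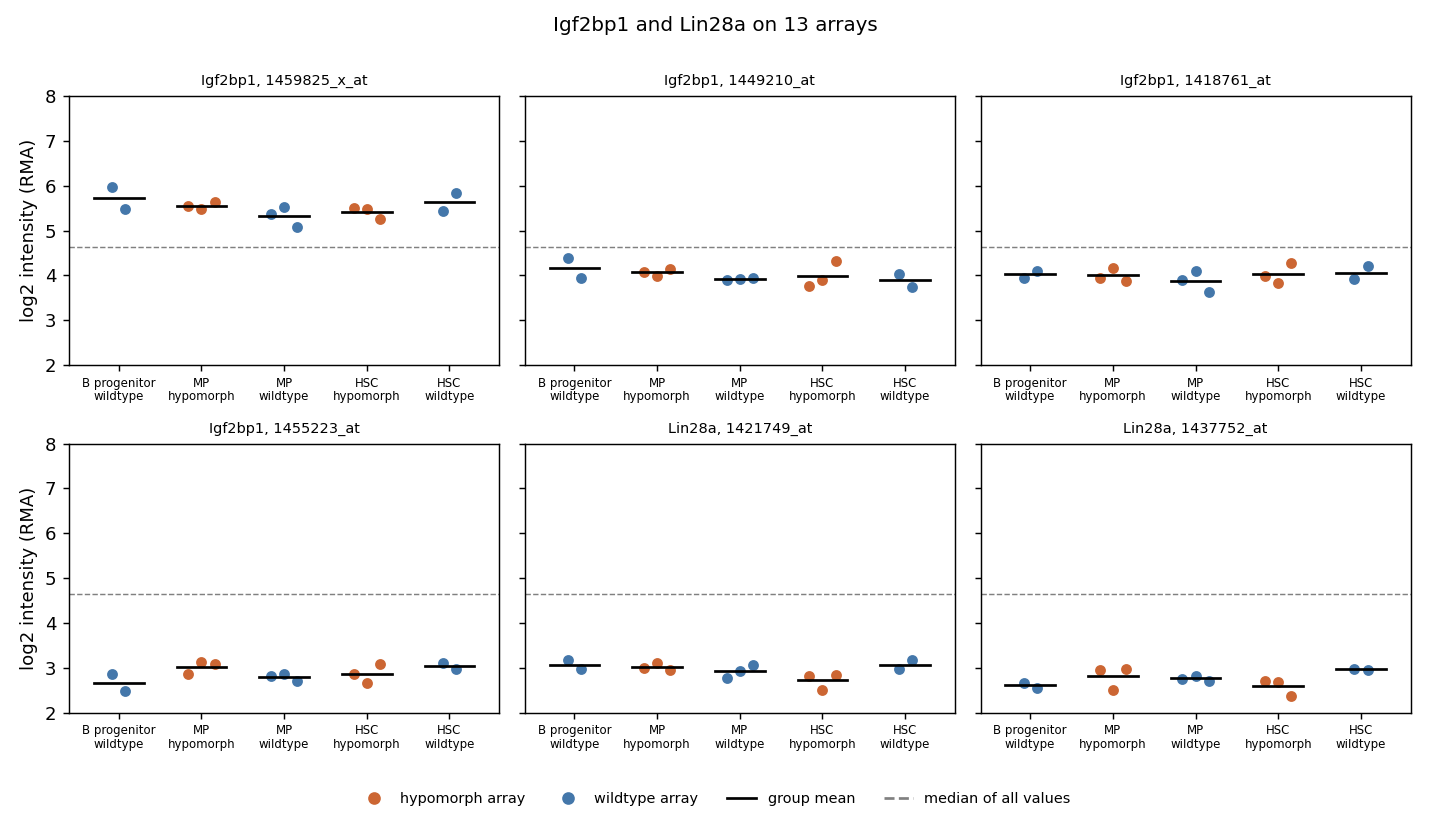
Log2 intensity (y axis) of the 4 Igf2bp1 and 2 Lin28a probe sets on the 13 arrays, by cell population and genotype (x axis), drawn as for Hmga2. The Igf2bp1 probe set 1459825_x_at lies between 5.08 and 5.98 on all arrays, and the Lin28a probe sets lie under 3.2.

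Taking all 16 probe sets, every hypomorph array lay below every wildtype array in 8 of 16 in HSC and in 3 of 16 in MP, the 3 bright Hmga2 probe sets. That happened in 20.7% of all probe sets in HSC and in 10.8% of all probe sets in MP. These counts describe what the selection used. Every hypomorph array lay above every wildtype array in 0 of 16 in HSC and in 4 of 16 in MP, and in 10.8% of all probe sets in HSC and 11.5% in MP. The 5 HSC probe sets other than those of Hmga2 had differences of -0.18 to -0.38, against a median of -0.11 over all genes tested in that comparison, and the median over all genes in MP was -0.02.

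Between cell types, over all 34958 probe sets with no filter, the member probe sets were called as follows. In wildtype MP against HSC 3 were higher and 1 lower of 16, where 18.2% of all probe sets were called. In B progenitors against wildtype HSC 1 was higher and 2 lower, where 28.1% were called. In B progenitors against wildtype MP 3 were higher and 3 lower, where 22.3% were called. In hypomorph MP against hypomorph HSC none of 16 was called by limma, where 4.96% were called; 2 of the 16 had an unadjusted p below 0.05, both of Hmga2. In that count of B progenitors against MP, the lower calls were all of Hmga2 and the higher calls all of Igf2bp3. With 16 probe sets of 4 genes, no excess over the background is read from these counts.

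**Figure D4:**
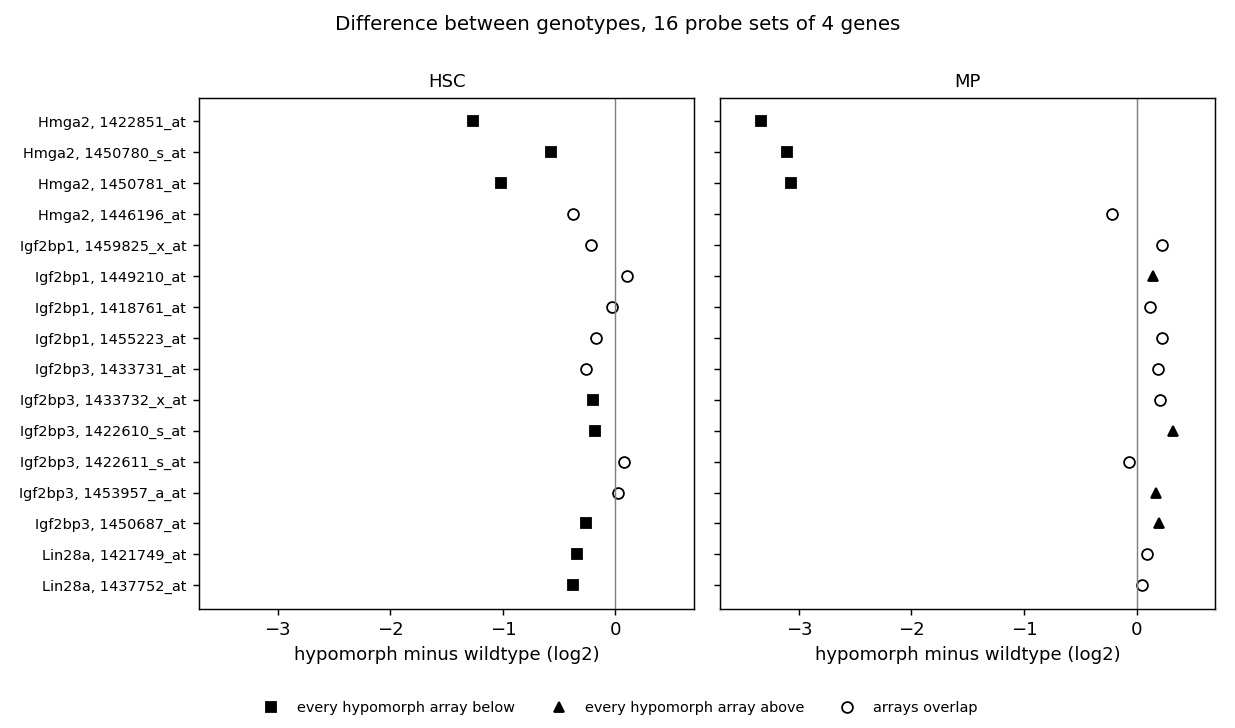
Hypomorph minus wildtype difference in log2 intensity (x axis) for the 16 probe sets (y axis) in HSC and MP; filled symbols mark groups that do not overlap, open circles groups that do. The 3 bright Hmga2 probe sets lie at -3.07 to -3.33 in MP and at -0.57 to -1.26 in HSC, and all other probe sets lie between -0.38 and 0.32.

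The genes most like Hmga2 were taken by Pearson r of log2 values over the 13 arrays among all genes tested. They were Zkscan4 (r = 0.88), Rhot1 (0.87), Ppp1r3d (0.87), Tom1l1 (0.87), Nfya (0.86) and Dmac2l (0.86). These are the highest values among all genes tested, over arrays that fall into 5 groups, so no link to Hmga2 is read from them. Rhot1, which encodes a mitochondrial GTPase, averaged 7.15 in hypomorph and 8.10 in wildtype MP, 7.50 in hypomorph and 8.01 in wildtype HSC, and 6.39 in B progenitors. Nfya, a subunit of the CCAAT-binding factor NF-Y, averaged 7.93 and 8.62 in hypomorph and wildtype MP, 8.14 and 8.24 in hypomorph and wildtype HSC, and 7.43 in B progenitors. All spanned less than Hmga2, whose group means spanned 4.75. No genes were matched to Igf2bp1 or Igf2bp3, whose group means spanned 0.40 and 0.66, under the minimum of 1.

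Other genes of the same circuits were taken from 8 lists: regulators of let-7, let-7 targets, the IGF axis, other high mobility group proteins, partners of Igf2bp proteins, Igf2bp targets, a fetal programme, and genes linked to Hmga proteins. Of their 101 genes, 76 were tested. The lists were written with earlier results of these data known, so the calls among them are not independent evidence. In hypomorph MP 1 of the 76 rose and 0 fell, where 0.588% of all genes were called, with a median difference of -0.13 against -0.02 over all genes. In hypomorph HSC 13 rose and 7 fell, where 10.8% of all genes were called, with a median of 0.02 against -0.11 over all genes. These shares over all genes stand beside the count of every list below, and no excess is read from a list count.

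The let-7 target Ccnd1, a D-type cyclin that drives entry into S phase, was the list gene that rose in both. It averaged 8.12 ± 0.14 in hypomorph and 5.65 ± 0.57 in wildtype MP (SD, n = 3 each), a difference of 2.47 (SE 0.42, limma adjusted p = 0.0124). In HSC it averaged 9.30 ± 0.33 in the hypomorph (SD, n = 3) and 6.58 ± 1.39 in the wildtype (SD, n = 2), a difference of 2.73 (SE 0.47, limma adjusted p = 0.00297). The MP call was lost without MP hypomorph 1, MP hypomorph 2 or MP wildtype 3. The direction of Ccnd1 was opposite to that of Hmga2, which is also a let-7 target. A part of let-7 in either difference was not tested. Of 16 let-7 targets tested, 2 rose in hypomorph HSC, where 10.8% of all genes were called. They were Ccnd1 and the TGF-beta receptor gene Tgfbr1 (0.84). The Tgfbr1 call was lost in 7 of 25 alternatives, with 0.24 where its probe sets were averaged (limma adjusted p = 0.283).

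Of 14 let-7 regulators tested, 2 fell in hypomorph HSC, where 10.8% of all genes were called. They were Tut7 (-0.78), a uridylyltransferase that modifies let-7 precursors, and the Argonaute gene Ago1 (-0.67). The call of Tut7 was lost in 12 of 25 alternatives and that of Ago1 in 15 of 25, both under the replicate block, array weights and centring of the arrays. Tut7 differed by -0.36 with its probe sets averaged. Neither rose nor fell by the test in MP, where Tut4, a relative of Tut7, had the smallest p of the list (-1.26, limma adjusted p = 0.114). Of 21 IGF axis genes tested, 3 fell in hypomorph HSC, again beside 10.8% of all genes called. These were the growth factor gene Igf2, 5.58 ± 0.12 in hypomorph (SD, n = 3) and 6.78 ± 0.24 in wildtype HSC (SD, n = 2), a difference of -1.20 (SE 0.20, limma adjusted p = 0.00211), its clearance receptor gene Igf2r (-1.12), and Grb10 (-1.23), an adaptor that restrains insulin and IGF receptors. In MP Grb10 differed by -1.26 (limma adjusted p = 0.105) and Igf2 by 0.04. All 3 are imprinted genes in the mouse. The median of the IGF axis list was -0.39 in HSC, against -0.11 over all genes tested.

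Of 6 other high mobility group genes tested, 3 rose in hypomorph HSC, and the list median was 1.04, against -0.11 over all genes tested. The chromatin protein gene Hmgb2 averaged 10.90 ± 1.21 in hypomorph (SD, n = 3) and 7.98 ± 0.01 in wildtype HSC (SD, n = 2), a difference of 2.91 (SE 0.49, limma adjusted p = 0.00237). The nucleosome-binding protein gene Hmgn5 rose by 2.13 and Hmgb3 by 1.29. In MP Hmgn5 had the smallest p of the list, with -0.57 (limma adjusted p = 0.279). Of 13 genes of Igf2bp partners, 4 rose in HSC: the helicase gene Dhx9 (1.76), the RNA methyltransferase subunit gene Mettl14 (1.69), and the RNA-binding protein genes Hnrnpu (1.14) and Elavl1 (0.93). With probe sets averaged, Hnrnpu differed by 0.21 and Elavl1 by 0.02 (limma adjusted p = 0.578 and 0.956), and neither was called. In MP none of the 13 was called, and the reader of RNA methylation Ythdf3 came closest (-0.82, limma adjusted p = 0.302).

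Of 7 Igf2bp targets, the drug transporter gene Abcb1b rose by 1.95 in hypomorph HSC, and Igf2 and the ubiquitin ligase subunit gene Btrc (-0.99) fell. In MP the hyaluronan receptor gene Cd44 came closest to a call (-0.93, limma adjusted p = 0.148). Of 5 genes linked to Hmga proteins, the cell cycle genes Ccna2 (1.43), Ccnb2 (1.15) and E2f1 (0.98) rose in HSC and Junb, an AP-1 subunit, fell (-1.30). In MP Junb differed by 0.63 (limma adjusted p = 0.273). The fetal programme had 2 genes tested, of which Igf2 fell in HSC and the other, Arid3a, differed by 0.24 in MP (limma adjusted p = 0.497).

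The HSC calls depended on single arrays. Of the 20 genes called, 6 were called without each of the 13 arrays in turn: Abcb1b, Ccna2, Ccnd1, Hmgb2, Hmgn5 and Igf2. Without HSC wildtype 2 these 6 were the ones left. A fit without either wildtype HSC array has 1 array in that group, which is assumed to vary like the other groups. The differences without HSC wildtype 2 were over 1.5 times smaller for Ccnd1 (1.75), Dhx9 (1.09), Mettl14 (0.92), Junb (-0.77), Hnrnpu (0.63), Elavl1 (0.61) and Tut7 (-0.50), of which Ccnd1 was called. Without HSC hypomorph 2 there were 11 of the 20, without any other array 16 to 20, and in a fit of the HSC arrays alone 1 list gene was called, Hmgn5.

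The choice of probe set also mattered. With the probe sets of a gene averaged, 7 of the 20 calls were lost, those of Hnrnpu, Elavl1, Tut7, Tgfbr1, Grb10 (-0.53), Btrc (-0.34) and E2f1 (0.56), all with smaller differences by over 1.5 times. Abcb1b (1.12), Dhx9 (0.79) and Igf2 (-0.64) also shrank by over 1.5 times and were still called.

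**Figure D5:**
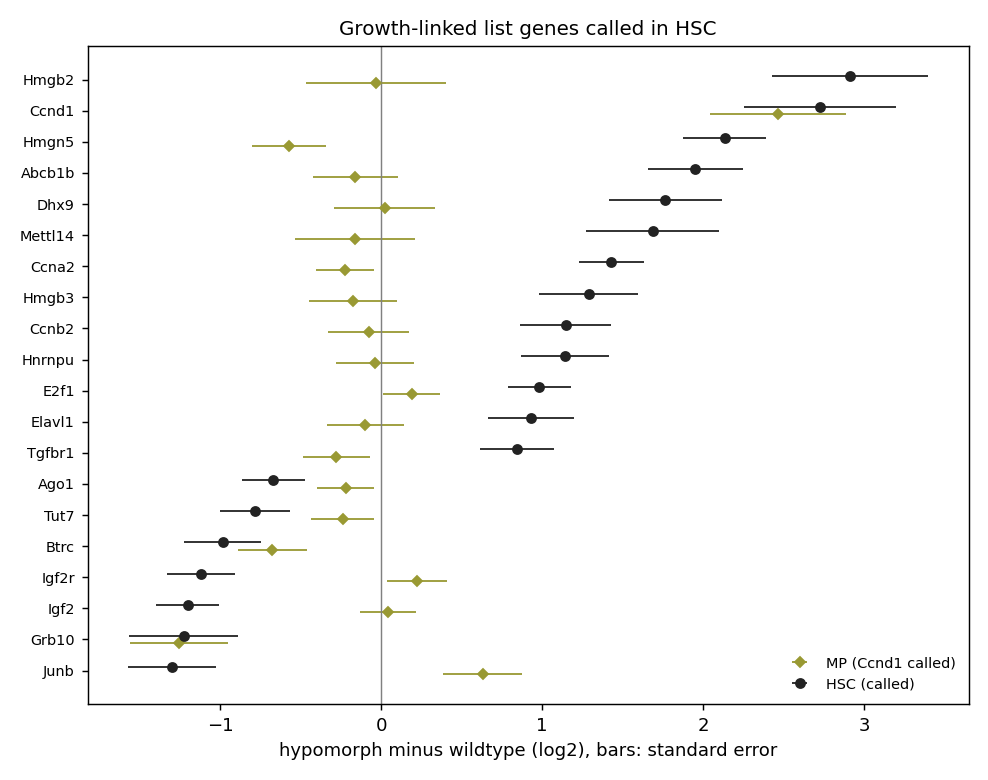
Hypomorph minus wildtype difference in log2 intensity with its standard error (x axis) for the 20 list genes called in HSC (y axis), in HSC (circles) and MP (diamonds). Ccnd1 lies at 2.73 in HSC and 2.47 in MP, and Hmgb2, at 2.91 in HSC, lies at -0.03 in MP.

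Measures of proliferation and of other cells moved with the genotype in HSC, where 10.8% of all genes were called. Of 16 proliferation genes tested, 10 rose and 0 fell, and their mean level was 10.44 to 10.71 on hypomorph and 9.30 to 9.36 on wildtype HSC arrays. In MP the same mean was 10.44 to 10.67 on hypomorph and 10.74 to 10.83 on wildtype arrays, with 0 of 16 called by limma and 1 at an unadjusted p below 0.05. All 6 tested of 7 mast cell markers rose in hypomorph HSC, with mean levels of 7.48 to 8.16 on hypomorph and 4.62 to 5.09 on wildtype arrays. Of the MP markers 4 of 11 rose in hypomorph HSC, of the HSC markers 1 of 10 rose and 2 fell, and of the B lineage markers 2 of 9 fell, Cd79b (-0.89) and Igll1 (-0.77). The part of these shifts in the Hmga2 difference and in the list genes was not tested. Of the T and NK cell, macrophage and stroma, megakaryocyte and red cell markers, 1 of 3, 1 of 5, 1 of 6 and 0 of 2 tested were called in HSC.

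Markers moved with the genotype in MP as well, where 0.588% of all genes were called. Of the 10 HSC markers 1 fell in hypomorph MP, Fgd5 (-1.74, limma adjusted p = 0.0102), 5 had an unadjusted p below 0.05, and the list median was -0.73. The MP marker Fcgr3 rose by 1.11 (limma adjusted p = 0.0108), 1 of 11. The adhesion molecule gene Vcam1 rose by 2.16 (limma adjusted p = 0.00549), 1 of 5 macrophage and stroma markers. The mast cell protease gene Cma1 rose by 2.57 (limma adjusted p = 0.0099), 1 of 6 mast cell markers. The interleukin 7 receptor gene Il7r fell (-1.31, limma adjusted p = 0.0411), 1 of 9 B lineage markers. Of the red cell markers 0 of 2 tested were called, but both had an unadjusted limma p below 0.05, and the list median was 1.38. Of the T and NK cell and megakaryocyte markers, 0 of 3 and 0 of 6 tested were called. The part of these shifts in the MP differences was not tested.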

How the data were processed

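Expression was measured with Affymetrix arrays in 5 sorted populations, and the authors deposited log2 intensities computed with RMA, per the labels. Its version was not given in the sources used here, and the base of the log2 scale was inferred from the values, which run from 1.93 to 14.99. Of the 24 columns, 13 hold a normalization of all arrays, used throughout, and 11 a second one of the HSC and MP arrays, used as an alternative. The members and gene lists were chosen with earlier results of these data known.

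Probe sets were named from the platform annotation: 34958 had 1 symbol, 932 several and 9211 none, and those with 1 were used. Each gene was represented by its brightest probe set on average, and was tested if that probe set was at or above 4.64, the median over all values, on 2 or more arrays. One limma model (version 3.58.1, R 4.3.3) of 5 group means, with 8 residual degrees of freedom, gave moderated tests, adjusted by Benjamini and Hochberg over 12745 genes and called below 0.05. A fit of all 34958 probe sets with no filter was added after seeing the data, for the member probe sets. In the genotype comparisons member values carry no test. Named genes are all members, up to 6 called genes of each list by size of change or else the one with the smallest p, and the genes most like Hmga2 over the arrays. The fit was tested on simulated data. Array depth does not apply, and the number of arrays limits the precision. Sequences are from RefSeq tables of GRCm38.p6, which held promoters for 5 of the 6 members. The labels do not say whether same-numbered arrays belong together, and the main model treats arrays as unpaired. Deviations of same-numbered arrays correlated at -0.15 and -0.0035 in HSC and at -0.04, 0.26 and 0.13 in MP. With so few arrays in a group, these values cannot show or exclude a pairing. Alternatives were the second normalization, the replicate block, the arrays compared alone, prior and array weights, other filters, mean or every probe set, centring and each array left out.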

Additional observations from a re-analysis of the deposited data

Results flagged for a closer look

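Hmga2 was lower on every hypomorph MP array than on every hypomorph HSC array, and higher on every wildtype MP array than on every wildtype HSC array. The MP minus HSC difference was -0.94 in hypomorph and 1.13 in wildtype cells, so that the wildtype difference minus the hypomorph one was 2.07. This difference between the genotypes was not tested, because the same arrays chose the gene.

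For 8 of the list genes named above the hypomorph effect differed between MP and HSC by the interaction term of limma, as it did for 717 of the 12745 genes tested. These genes were named because they were called in HSC, and the interaction contains that same HSC effect, so their count is not independent evidence and is not to be read against the 717. The effect in MP minus that in HSC was -2.95 for Hmgb2 (adjusted p = 0.0214), -2.71 for Hmgn5 (adjusted p = 0.00131), -2.11 for Abcb1b (adjusted p = 0.0103), -1.74 for Dhx9 (adjusted p = 0.0469) and -1.65 for Ccna2 (adjusted p = 0.00512), all limma values, each of these genes being called higher in hypomorph HSC and not called in MP. It was 1.93 for Junb (adjusted p = 0.0112), 1.34 for Igf2r (adjusted p = 0.0166) and 1.24 for Igf2 (adjusted p = 0.0172), which were called lower in hypomorph HSC and not called in MP. For Ccnd1 the 2 effects differed by -0.26 (SE 0.63, adjusted p = 0.835).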

How the results depend on the processing

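No value of the members or lists turned its direction against a call, and the 2 B progenitor comparisons of Hmga2 were called under every alternative computed. Those comparisons share wildtype arrays with the contrasts that chose Hmga2. The hypomorph minus wildtype difference of Hmga2 was -0.81 in HSC and -2.43 in MP with its probe sets averaged, and -1.63 to -0.90 in HSC with each array left out. Of the members tested, 3 in most fits and 4 over every probe set with no filter, the number called in wildtype MP against HSC was 0 under array weights, 2 over every probe set with no filter, and 0 to 1 with each array left out. In B progenitors it was 2 over every probe set, with or without the filter, against both other populations, 2 under array weights against MP, and 1 to 2 with each array left out, 2 without B progenitor 2. Over every probe set with the filter, the second member was Igf2bp3. Its call came from 1422610_s_at, which passed the filter through the 2 B progenitor arrays alone. Where 1 of 2 arrays of a group is left out, the array that remains is assumed to vary like the other groups. With probe sets averaged, or with the filter at the 75th percentile, Hmga2 was the only member tested. With no filter Lin28a was tested as well, so the counts of members called do not share 1 denominator. In hypomorph MP against HSC the number of members called was 0 in the second normalization, under the replicate block and with probe sets averaged. It was also 0 over every probe set with or without the filter, and 0 to 1 with each array left out. List genes called numbered 1 in HSC and 2 in MP with only the arrays compared, 22 in MP under array weights, 6 to 24 in HSC and 0 to 2 in MP with each array left out. Over all genes 1375 were called in HSC and 75 in MP. These became 139 and 164 with only the arrays compared, 3901 in MP under array weights, 453 in HSC without HSC wildtype 2 and 38 to 184 in MP with each array left out. The replicate block gave 896 in HSC. Wildtype MP against HSC gave 4050, or 2548 without HSC wildtype 2 and 6372 over every probe set with no filter. B progenitors gave 5737 against HSC and 4571 against MP, or 9161 and 7397 over every probe set and 9811 and 7812 with no filter too. Hypomorph MP against HSC gave 1485, or 3270 under array weights and 972 without HSC hypomorph 2. The causes of these changes were not tested. Fits with arrays left out also hold fewer arrays, and those over every probe set hold more features. No detection calls were at hand, so the intensities of Lin28a and of the dim probe sets may not be above background.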

Other observations

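The 76 list genes also differed between cell types. In wildtype MP against wildtype HSC 18 were called higher and 11 lower, in B progenitors against wildtype HSC 27 higher and 18 lower, and in B progenitors against wildtype MP 16 higher and 18 lower. In hypomorph MP against hypomorph HSC 2 were called higher and 2 lower. All counts are from the limma fit of 12745 genes, in which these comparisons called 31.8%, 45.0%, 35.9% and 11.7% of genes.

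A probe set annotated to Hmga2-ps1, a pseudogene of Hmga2, is named after its values were seen. It averaged 7.90 ± 0.10 in hypomorph and 7.92 ± 0.23 in wildtype MP (SD, n = 3 each), where the bright Hmga2 probe sets differed by more than 3. In HSC it averaged 6.63 ± 0.61 in the hypomorph (SD, n = 3) and 5.48 ± 0.60 in the wildtype (SD, n = 2), and in B progenitors 6.17 ± 0.09 (SD, n = 2).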
